A study of Rattus norvegicus with 12 samples.

Results

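The 10 genes described here belong to the neuronal cytoskeleton, measured in the dorsal root ganglia of rats, where the cell bodies of sensory neurons lie, after their peripheral axons had been tied off. They were the neurofilament genes Nefl, Nefm and Nefh, the related filament genes Prph and Ina, the tau gene Mapt, the kinesin gene Kif5a, the stathmin genes Stmn2 and Stmn4, and the beta tubulin gene Tubb2b. Every probe set annotated to 1 of these symbols alone was taken, which gave 16 probe sets for the 10 genes, out of 15866 probe sets tested and 10411 genes with a single symbol. The study compared adult male Sprague Dawley rats of the Low Pain (LP) and High Pain (HP) genetic sub-lines. The L4 and L5 spinal nerves were ligated (SNL, a model of neuropathic pain) and the L4/L5 ganglia taken at 3 days, or the rats had sham surgery that left the nerve undamaged. The 4 groups, HP SNL, HP sham, LP SNL and LP sham, had 3 Affymetrix arrays each of total RNA from whole ganglia. The labels do not say that arrays came from separate animals, so a p-value here speaks of the scatter among these arrays alone, part of which may be technical.

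Neurofilaments are the main structural filaments of large axons. They are heteropolymers in which a light, a medium and a heavy subunit assemble with alpha-internexin (Ina) or peripherin (Prph), and they set axon calibre. Tau binds and stabilises axonal microtubules, and the Kif5a motor carries cargo, neurofilament proteins among it, along them. Stathmins bind tubulin dimers and promote microtubule turnover, and Stmn2 and Stmn4 belong to growth cones and developing neurons, as does the tubulin isotype Tubb2b. Injury of a sensory axon is known to move the cell body from maintaining a mature axon to regrowing one, and a fall in neurofilament messages is a classical part of that change in the weeks after axotomy.

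At 3 days after ligation, 2 of the growth-type genes were higher and 2 genes of the mature axon lower in both lines. Stmn4 rose 3.55-fold in HP and 2.84-fold in LP, and Tubb2b rose 1.6-fold and 1.5-fold. Mapt and Kif5a fell in both lines, the brightest Mapt probe set to 0.705 of the sham level in HP and 0.516 in LP, and the brightest Kif5a probe set to 0.642 and 0.608. Nefl, Nefm, Nefh, Prph, Ina and Stmn2 did not pass the test in either line. By limma, with Benjamini-Hochberg adjustment over all 15866 probe sets and a threshold of 0.05, 2 of the 16 probe sets rose and 4 fell in HP, where 10.8% of all probe sets passed, 5.42% higher and 5.34% lower. In LP 2 rose and 3 fell, where 12.1% of all probe sets passed, 6.35% higher and 5.76% lower. Counted by gene, 4 of the 10 genes had at least 1 probe set past the threshold in each line, against 12.8% of all genes in HP and 14.3% in LP. The SNL and sham arrays did not overlap for 9 of the 16 probe sets in HP and for 9 in LP, against 31.5% and 29.0% of all probe sets.

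**Figure D1:**
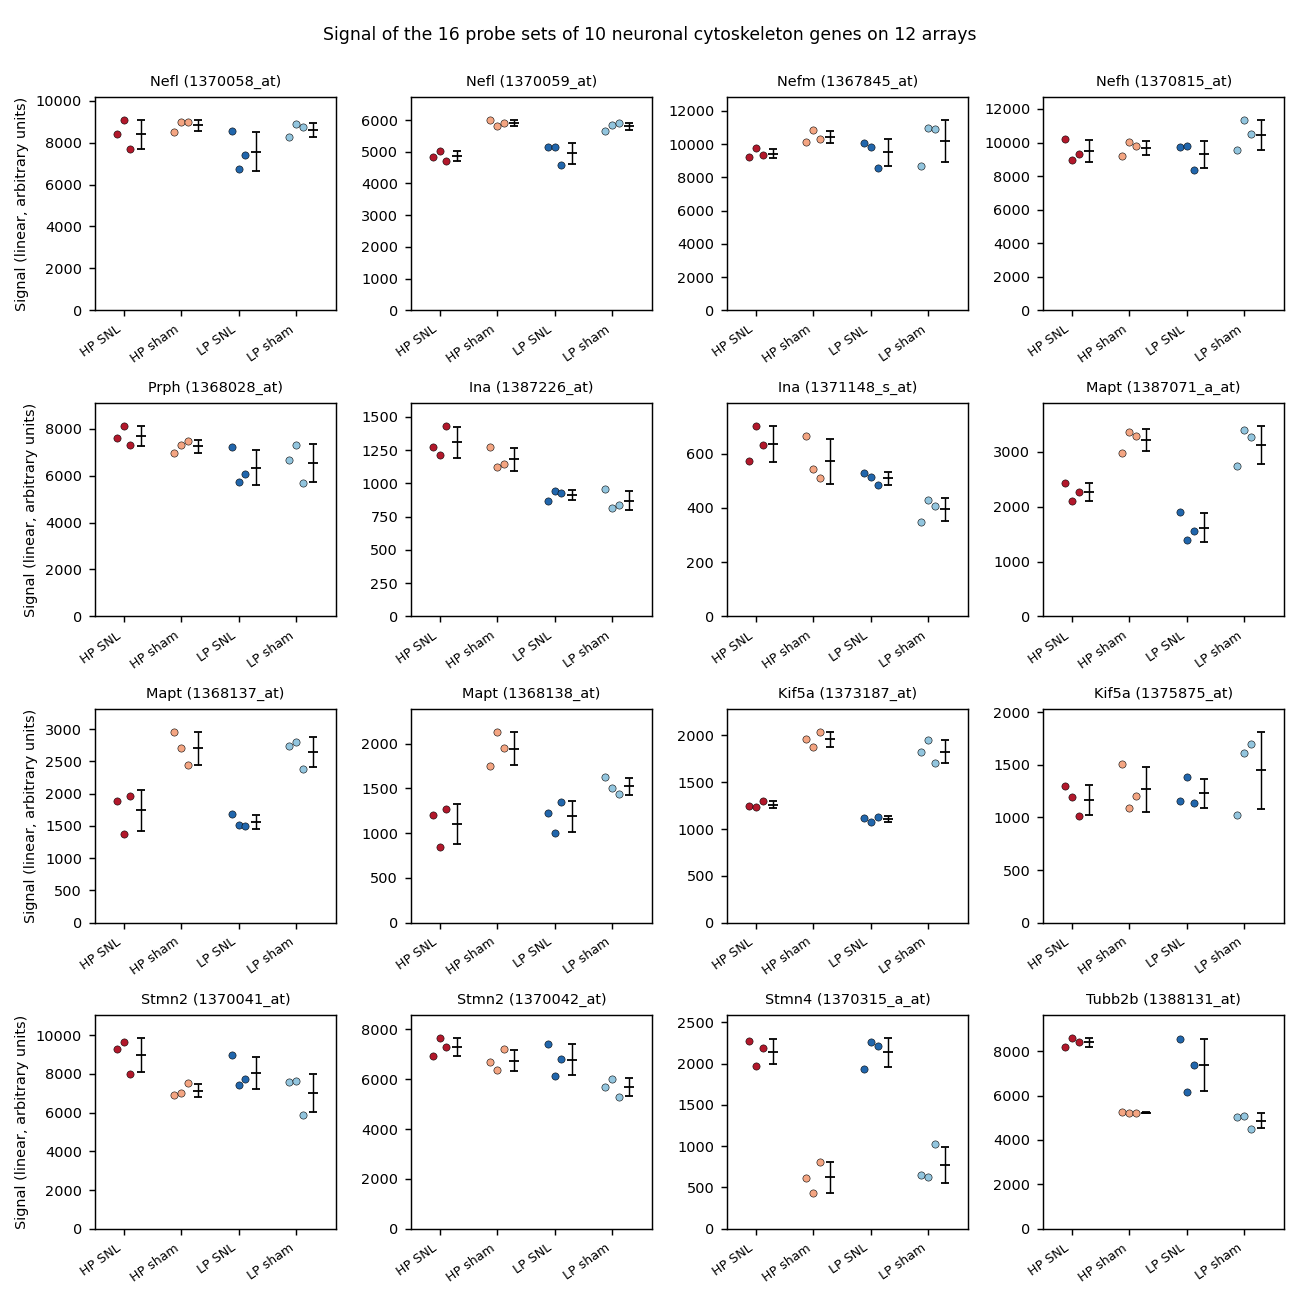
Signal (linear scale, arbitrary units, axes from 0) of each of the 16 probe sets on the 3 arrays of each group, with points for arrays and a bar for the mean ± SD. Stmn4 and Tubb2b are higher, and the Mapt probe sets and the first Kif5a probe set lower, on every SNL array than on any sham array of the same line.

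The signals are on the deposited linear scale, on which the median probe set of an array lay between 278.4 and 313.2. Log2 differences are SNL minus sham after taking log2(signal + 1), given ± SE; this scale understates changes of dim probe sets. Signals of different genes are not compared, because a probe set's brightness also depends on its probes. Most of these genes were among the brightest on the arrays. Nefm ranked between 2nd and 28th of 15866 probe sets on every array and Nefh between 4th and 37th. Nefl, Prph, Stmn2 and Tubb2b lay at or above the 98.7th percentile throughout, while Ina, Mapt, Kif5a and Stmn4 lay lower, between the 54.5th and the 97.8th percentile. The highest value of the whole table was 13930.7. Whether signals this high respond less than in proportion to the amount of RNA was not tested. In whole-ganglion RNA, fewer cells of a type and less RNA per cell cannot be told apart.

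Among the 3 neurofilament subunits, Nefl, which encodes the light subunit that every neurofilament needs, came nearest to a change. Its second probe set, 1370059_at, had signals of 4822.9, 5026.5 and 4718.9 in HP SNL, against 6015.3, 5819.0 and 5895.7 in HP sham. In LP the values were 5146.1, 5142.8 and 4576.9 after SNL and 5667.8, 5840.0 and 5892.1 after sham. Every SNL array was thus below every sham array of its line. The log2 difference was -0.28 ± 0.08 in HP (limma adjusted p = 0.0571) and -0.23 ± 0.08 in LP (adjusted p = 0.113), so neither passed. The HP value did pass in 6 of its 22 alternatives, for example with quantile normalization (-0.39, adjusted p = 0.0313) and with median centring (-0.32, adjusted p = 0.0463), over a range of 0.0108 to 0.161. The brighter Nefl probe set, 1370058_at, averaged 8410 ± 692 in HP SNL and 8820 ± 274 in HP sham (SD, n = 3 each), and its groups overlapped. Its log2 difference was -0.07 ± 0.11 in HP and -0.19 ± 0.11 in LP (adjusted p = 0.758 and 0.321).

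Nefm encodes the medium subunit. Its signals were 9212.4, 9770.9 and 9319.2 in HP SNL, against 10137.9, 10823.9 and 10319.2 in HP sham. Although these groups did not overlap, the log2 difference of -0.14 ± 0.11 did not pass (adjusted p = 0.494). In LP, Nefm averaged 9497.5 ± 799 after SNL and 10191 ± 1290 after sham (SD, n = 3 each), a log2 difference of -0.10 ± 0.11 (adjusted p = 0.676). The wide spread in LP sham came from replicate 1, at 8705.5, while the other 2 arrays read 10968.5 and 10899.1. Nefh, the heavy subunit, carries the long phosphorylated tail that projects from the filament. It averaged 9493 ± 637 in HP SNL and 9687 ± 428 in HP sham, and 9303 ± 806 in LP SNL and 10465 ± 906 in LP sham (SD, n = 3 each). The log2 differences of Nefh were -0.03 ± 0.11 and -0.17 ± 0.11 (adjusted p = 0.906 and 0.378).

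On the deposited scaling, the 95% intervals of the log2 difference ran from -0.27 to 0.21 for Nefh in HP, and from -0.41 to 0.07 in LP. For Nefm they ran from -0.40 to 0.11 and from -0.35 to 0.15. The lowest bound among the neurofilament probe sets was -0.47, for Nefl 1370059_at in HP. These intervals hold for that scaling alone. Quantile normalization moved the HP differences to -0.23 for Nefl 1370058_at, -0.29 for Nefm and -0.19 for Nefh (limma adjusted p = 0.146, 0.123 and 0.299), and the actin ratio covariate, given further on, moved Nefm to -0.30 (adjusted p = 0.172). In the average over both lines, a contrast added after the data were seen, Nefl 1370059_at was at -0.26 ± 0.06 (limma adjusted p = 0.0111), when 21.0% of all probe sets passed, 10.9% higher and 10.1% lower. The other Nefl probe set, Nefm and Nefh had averages of -0.13 ± 0.08, -0.12 ± 0.08 and -0.10 ± 0.08 (adjusted p = 0.279, 0.344 and 0.412). The point estimates of all 4 neurofilament probe sets were below 0 in both lines on the deposited scaling, although that of Nefh in HP was 0.01 without HP SNL replicate 2, and the 2 probe sets of Nefl measure 1 gene, and the annotation of the rat assembly GRCr8 places Nefl and Nefm close together, with 1 non-coding gene between them.

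Peripherin and alpha-internexin, the partners of the neurofilament triplet, did not pass either. Prph, typical of small sensory neurons and of peripheral axons, averaged 7674 ± 415 in HP SNL and 7244 ± 267 in HP sham, and 6340 ± 761 in LP SNL and 6533 ± 815 in LP sham (SD, n = 3 each). Its log2 differences were 0.08 ± 0.12 and -0.04 ± 0.12 (adjusted p = 0.749 and 0.884), and the HP value turned to -0.11 after quantile normalization. Ina had 2 probe sets. The brighter, 1387226_at, read 1275.9, 1212.9 and 1433.5 in HP SNL, against 1275.9, 1121.2 and 1143.0 in HP sham, and 866.9, 939.5 and 926.4 in LP SNL, against 955.2, 816.6 and 840.8 in LP sham. The groups overlapped in both lines, at log2 differences of 0.15 ± 0.10 and 0.07 ± 0.10 (adjusted p = 0.451 and 0.772). The dimmer one, 1371148_s_at, did not overlap in LP, with 526.8, 514.9 and 483.1 after SNL and 346.8, 428.3 and 407.6 after sham, at 0.37 ± 0.13 (adjusted p = 0.109). Its suffix marks a probe set that may detect more than 1 transcript.

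**Figure D2:**
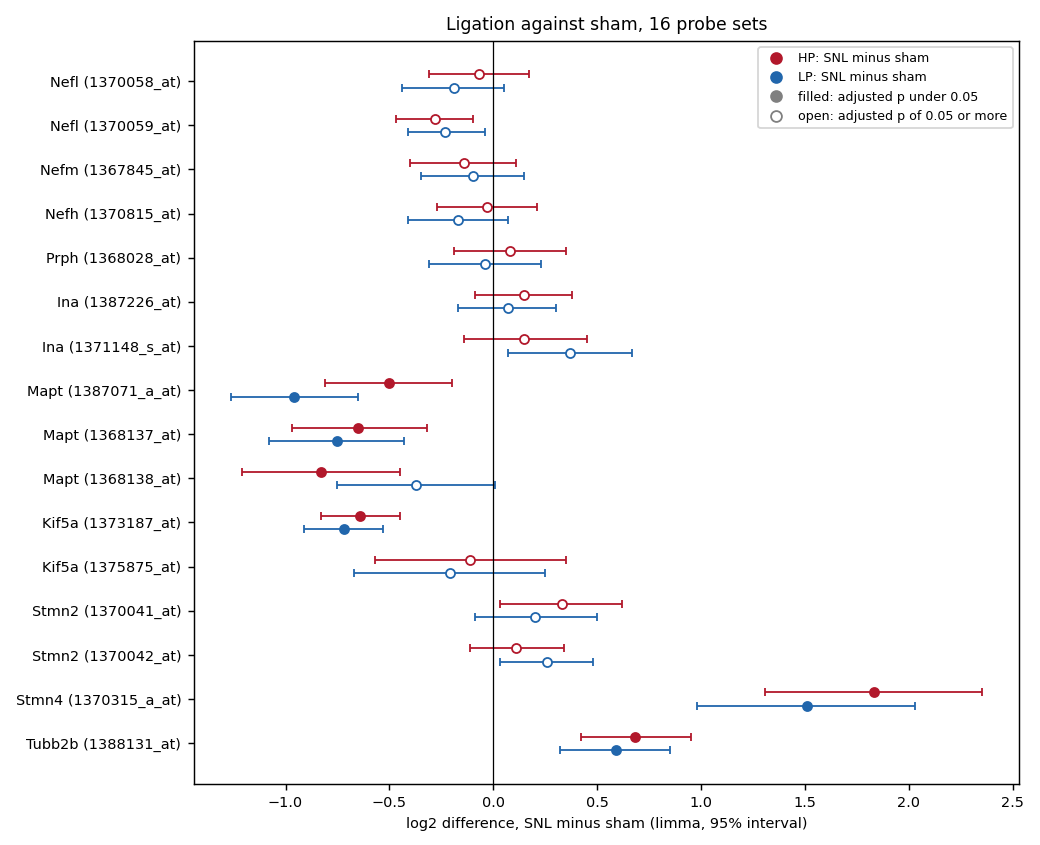
Log2 difference, SNL minus sham, with its 95% interval from limma, for each of the 16 probe sets in HP (red) and LP (blue). Filled points passed an adjusted p of 0.05. No neurofilament, Prph or Stmn2 point is filled. The intervals of Nefl 1370059_at lie below 0 in both lines, and those of Stmn2 1370041_at in HP and 1370042_at in LP lie above 0. Those of Stmn4 start at 1.31 in HP and 0.98 in LP.

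Tau fell. All 3 Mapt probe sets were lower on every SNL array than on any sham array of the same line. The brightest, 1387071_a_at, read 2424.3, 2101.5 and 2269.3 in HP SNL, against 2981.6, 3363.4 and 3295.3 in HP sham. In LP it read 1905.7, 1389.3 and 1566.3 after SNL, against 2734.3, 3390.5 and 3265.7 after sham. The log2 differences were -0.50 ± 0.14 in HP (adjusted p = 0.0425) and -0.96 ± 0.14 in LP (adjusted p = 0.00175). The order of the 3 probe sets differed between the lines. The dimmest, 1368138_at, had the largest fall in HP, at -0.83 ± 0.17 (adjusted p = 0.0126), and the smallest in LP, at -0.37 ± 0.17 (adjusted p = 0.216). Probe set 1368137_at lay between them in both, at -0.65 ± 0.15 and -0.75 ± 0.15 (adjusted p = 0.021 and 0.00881). The test of the difference between the lines did not pass for any of the 3, with interaction values of -0.45 ± 0.19, 0.46 ± 0.24 and -0.11 ± 0.21 for 1387071_a_at, 1368138_at and 1368137_at (adjusted p = 0.984, 0.984 and 0.993).

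In HP the calls on Mapt were narrow. Probe set 1387071_a_at lost the call in 12 of 24 alternatives, including the fit without each of the 6 HP arrays in turn (adjusted p = 0.0636 to 0.128), at log2 differences of -0.56 to -0.45. Probe set 1368137_at lost it without HP SNL replicate 2 (-0.49, adjusted p = 0.0523), HP sham replicate 1 (-0.58, 0.0815) and HP sham replicate 2 (-0.64, 0.059). When limma was given only HP arrays, none of the 3 passed (adjusted p = 0.0523, 0.0891 and 0.058). At least 1 Mapt probe set passed in HP without any single array. In LP, 1387071_a_at and 1368137_at passed in every alternative run.

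Kif5a encodes a neuron-specific kinesin heavy chain, a motor of anterograde axonal transport. Its brighter probe set, 1373187_at, read 1240.7, 1230.5 and 1300.0 in HP SNL, against 1965.5, 1877.1 and 2034.8 in HP sham. In LP it read 1117.9, 1075.5 and 1133.5 after SNL, against 1827.2, 1951.9 and 1704.2 after sham. The 6 SNL arrays of the 2 lines formed a tight band below all 6 sham arrays. The log2 differences were -0.64 ± 0.09 and -0.72 ± 0.09 (limma adjusted p = 0.00169 and 0.000688). The other Kif5a probe set, 1375875_at, showed no such separation. It averaged 1167 ± 144 in HP SNL and 1266 ± 217 in HP sham, and 1228 ± 139 in LP SNL and 1446 ± 367 in LP sham (SD, n = 3 each), at -0.11 ± 0.21 and -0.21 ± 0.21 (adjusted p = 0.809 and 0.619). With the mean of both standing for the gene, Kif5a did not pass in HP (-0.38, adjusted p = 0.0656) but did in LP (-0.46, adjusted p = 0.0258).

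Stmn4, a stathmin family member of neurons, had the largest change of the 10 genes. Its signals were 2268.6, 1972.5 and 2191.2 in HP SNL, against 613.4, 439.1 and 810.4 in HP sham. In LP they were 1934.7, 2257.4 and 2215.4 after SNL, against 651.6, 633.0 and 1020.7 after sham. The lowest SNL array was well above the highest sham array in both lines, and the SNL arrays of the 2 lines covered much the same range. The log2 differences were 1.83 ± 0.23 in HP and 1.51 ± 0.23 in LP (adjusted p = 0.00138 and 0.00279), with 95% intervals of 2.47-fold to 5.10-fold and 1.98-fold to 4.08-fold. Stmn4 passed in both lines in all 24 alternatives.

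Its relative Stmn2 (also called SCG10), a marker of growing and regenerating sensory axons in rodents, had no call. Probe set 1370041_at read 9304.5, 9646.8 and 7982.2 in HP SNL, against 6906.7, 6989.7 and 7507.9 in HP sham. In LP it read 8962.6, 7448.1 and 7719.8 after SNL, against 7571.2, 7618.7 and 5857.0 after sham. The groups were apart in HP and overlapped in LP, at 0.33 ± 0.13 and 0.20 ± 0.13 (adjusted p = 0.16 and 0.404). Probe set 1370042_at overlapped in HP and was apart in LP, at 0.11 ± 0.10 and 0.26 ± 0.10 (adjusted p = 0.565 and 0.15). Averaged over the lines, the 2 probe sets had log2 differences of 0.27 ± 0.09 and 0.18 ± 0.07, with intervals above 0 (0.06 to 0.47 and 0.02 to 0.35), and neither passed over all probe sets (adjusted p = 0.074 and 0.105).

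Tubb2b, a beta tubulin of developing neurons, rose in both lines. Its signals were 8187.0, 8582.0 and 8411.6 in HP SNL, against 5237.4, 5228.3 and 5223.7 in HP sham, and 8529.3, 6178.9 and 7387.4 in LP SNL, against 5055.5, 5060.8 and 4494.2 in LP sham. HP sham arrays agreed closely with each other, and LP SNL arrays spread most. The log2 differences were 0.68 ± 0.12 and 0.59 ± 0.12 (adjusted p = 0.00583 and 0.0101). When limma was given only LP arrays, the call was lost at the same difference (adjusted p = 0.0896). The call on Tubb2b held in all other alternatives run in each line. Beta tubulin genes are similar in sequence, and the annotation lists Tubb2b as an older name of its neighbour Tubb2a. The probe set annotated to Tubb2a gave 5633.4, 7210.4 and 5853.8 in HP SNL, against 6242.1, 6082.3 and 5601.0 in HP sham, a log2 difference of 0.05 ± 0.14 (adjusted p = 0.867), and 0.02 ± 0.14 in LP (adjusted p = 0.951). Whether the Tubb2b probes also bind other tubulin messages was not tested.

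Promoter sequences from RefSeq (GRCr8, 250 bases before to 50 after the annotated start) were matched for 3 of the 10 genes. These are shown because no other member gene had a matched window, not as a chosen comparison. Tubb2b rose, while Prph and Ina did not pass. The motifs include cAMP-response and AP-1 elements, which the injury-induced factors Atf3 and Jun bind. Whether any motif bears on the changes was not tested. Capitals mark TGACG on either strand, the half-site of the cAMP-response element, and TATAAA on either strand.
Tubb2b (chr17:30952836-30953135, plus strand): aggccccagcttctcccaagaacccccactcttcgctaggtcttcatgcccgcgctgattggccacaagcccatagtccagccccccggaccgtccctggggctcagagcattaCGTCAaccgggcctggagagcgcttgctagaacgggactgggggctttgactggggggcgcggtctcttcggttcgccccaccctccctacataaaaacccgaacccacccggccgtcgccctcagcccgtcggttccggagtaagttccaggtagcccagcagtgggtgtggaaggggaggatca
Prph (chr7:132097039-132097338, plus strand): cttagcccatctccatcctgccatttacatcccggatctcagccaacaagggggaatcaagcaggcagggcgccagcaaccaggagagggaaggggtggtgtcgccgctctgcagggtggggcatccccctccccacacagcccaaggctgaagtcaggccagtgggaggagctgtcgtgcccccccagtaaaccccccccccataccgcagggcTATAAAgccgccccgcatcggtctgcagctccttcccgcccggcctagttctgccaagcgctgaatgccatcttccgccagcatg
Ina (chr1:255837879-255838178, plus strand): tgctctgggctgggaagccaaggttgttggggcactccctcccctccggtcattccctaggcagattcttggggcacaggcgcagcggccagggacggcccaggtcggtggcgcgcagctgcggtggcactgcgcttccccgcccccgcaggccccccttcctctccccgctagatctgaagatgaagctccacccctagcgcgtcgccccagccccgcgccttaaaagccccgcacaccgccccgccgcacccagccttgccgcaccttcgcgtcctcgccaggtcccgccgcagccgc

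The Tubb2b window held 1 half-site match, read as CGTCA on the plus strand, starting at position -136 from the annotated start. TGACG or its complement was found in 21.2% of the 33469 promoter windows of the same length. The Prph and Ina windows held none. Neither the full cAMP-response element TGACGTCA, found in 1.8% of all windows, nor the AP-1 element TGANTCA, found in 7.3%, matched in any of the 3. TATAAA matched once in Prph, starting at position -35, and in 14.2% of all windows. A GC box (GGGCGG or its complement) matched 2 times each in Prph and Ina, not in Tubb2b, and in 33.1% of all windows. Windows counted for TGACG include those with TGACGTCA, which holds it on both strands. All motifs were searched on both strands, and a match describes letters in the window, not a site.

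**Figure D3:**
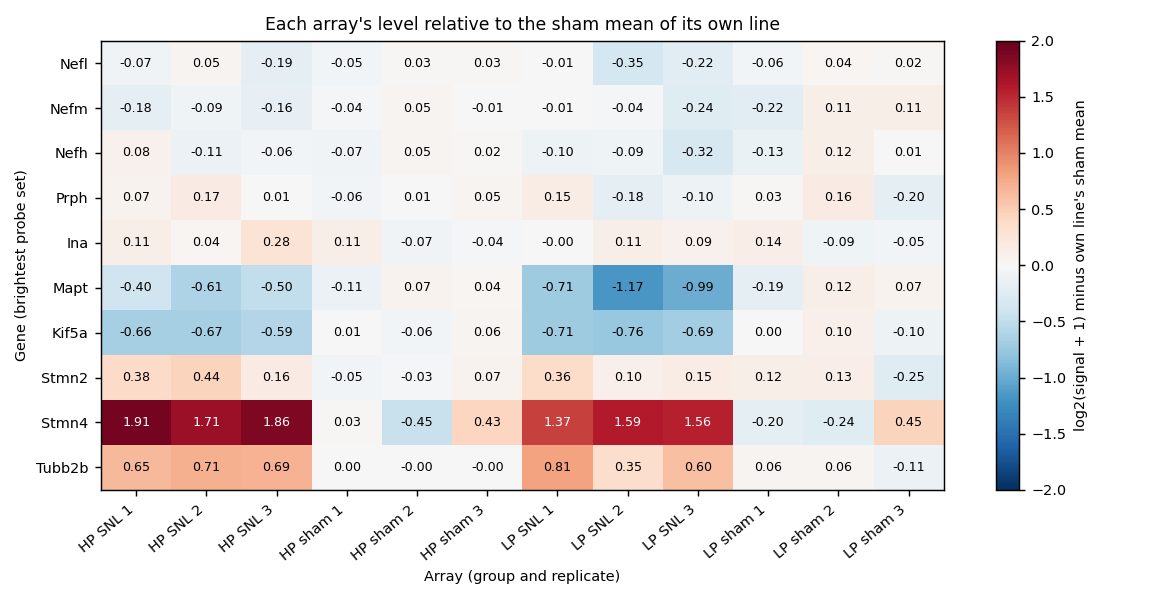
Each cell gives log2(signal + 1) of a gene's brightest probe set on 1 array minus the sham mean of that line, with red above and blue below it. Stmn4 and Tubb2b are red and Mapt and Kif5a blue on all 6 SNL arrays, while Nefl, Nefm, Nefh, Prph and Ina stay between -0.35 and 0.28.

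The SNL arrays were alike in how the 2 sets of genes stood to each other. As a description with no test, the mean of Stmn2, Stmn4 and Tubb2b relative to the sham mean of the same line was 0.98, 0.95 and 0.90 log2 units on the HP SNL arrays and 0.85, 0.68 and 0.77 on the LP SNL arrays. The same mean over Nefl, Nefm, Nefh, Prph, Ina and Mapt was -0.06, -0.09 and -0.10 in HP and -0.11, -0.29 and -0.29 in LP. The gap between the 2 means lay between 0.96 and 1.07 on all 6 SNL arrays and between -0.18 and 0.16 on the 6 sham arrays. Stmn4 contributed most to the first mean and Mapt most to the second. The brightest probe sets of the 3 growth-type genes had a median log2 difference of 0.68 in HP and 0.59 in LP. Those of the 6 structural genes had -0.05 and -0.13. The median over all probe sets was -0.01 and 0.03.

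Several other neuronal messages fell over the same days, and most macrophage markers rose. The marker counts stand against 12.8% of all genes with a probe set past the threshold in HP and 14.3% in LP. Of 12 measured general neuron markers, 1 rose and 6 fell in each line, and their summed signal was 35184 to 38457 in HP SNL against 42530 to 43170 in HP sham, and 31661 to 35758 in LP SNL against 37177 to 42074 in LP sham. The riser was Gap43, a growth cone protein. Among the defining neuronal markers, Rbfox3 (NeuN) fell, with log2 differences of -1.05 ± 0.23 and -1.26 ± 0.23 (adjusted p = 0.0179 and 0.0065), while Uchl1 (PGP9.5) had -0.02 ± 0.10 and -0.07 ± 0.10 (adjusted p = 0.929 and 0.767). Uchl1 stood at or above the 99.4th percentile of every array. Of 10 nociceptor markers 8 fell in each line, and of 12 markers of large myelinated sensory neurons 6 fell and 1 rose, while 2 rose in LP after quantile normalization and 0 after median centring. The large-neuron sums overlapped, at 14773.5 to 17126.8 in HP SNL against 15283.5 to 18021.7 in HP sham. In LP they were 15075.3 to 16627.7 after SNL against 16427.9 to 18102.5 after sham. The nociceptor sums were 10951.1 to 12142.9 against 18027.6 to 19370.5 in HP, and 8239.5 to 8895.8 against 17435.9 to 19654.9 in LP. Of 12 macrophage markers 10 rose, with a summed signal of 17040 to 19861 in HP SNL against 8813 to 9769 in HP sham, and 14386 to 16867 in LP SNL against 6834 to 7844 in LP sham. A marker counted by any of its probe sets, while the sums took the brightest probe set of each gene. Aif1 was counted as a riser by another probe set, while its brightest had 0.03 ± 0.27 and 0.10 ± 0.27 (limma adjusted p = 0.964 and 0.879). Skeletal muscle markers summed to 3213 to 3437 in HP SNL against 3929 to 4644 in HP sham, and to 3420 to 3666 in LP SNL against 3390 to 3820 in LP sham. The ratio of the actin 3' to 5' control probe sets was 1.118 to 1.342 in HP SNL against 1.483 to 1.847 in HP sham, and 1.113 to 1.125 in LP SNL against 0.993 to 1.877 in LP sham. With this ratio as a covariate Stmn4, Tubb2b, Kif5a 1373187_at and Mapt 1387071_a_at passed in both lines, while Mapt 1368137_at and 1368138_at lost their call in HP (adjusted p = 0.0898 and 0.0582) at log2 differences of -0.64 and -0.86, against -0.65 and -0.83 without it. The part of the changing cell makeup in the falls of Mapt and Kif5a was not tested.

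Further cytoskeleton genes were read from 7 lists, with 94 of 120 genes measured. In HP 15 of the 94 rose and 11 fell, and in LP 14 rose and 11 fell. Over all genes, 12.8% in HP and 14.3% in LP had a probe set past the threshold in either direction. The counts of each list below stand against these shares, and a count near them is not a result about the list. Tubulins other than Tubb2b mostly did not pass. Of 8 measured, 2 rose and 1 fell in HP and 1 rose in LP, with medians of -0.07 and -0.13, while 1 rose in HP after median centring and 2 rose in LP after quantile normalization. Tubb6, a broadly expressed beta tubulin, rose more than Tubb2b, to 567.4, 528.3 and 652.5 in HP SNL against 129.3, 129.5 and 145.2 in HP sham (2.10 ± 0.18, adjusted p = 0.000239), and by 1.73 ± 0.18 in LP (adjusted p = 0.000384). The brighter Tubb3 probe set, for the pan-neuronal beta tubulin, had -0.11 ± 0.13 and -0.18 ± 0.13 (adjusted p = 0.679 and 0.453). Of the 7 other stathmins and collapsin response mediator proteins, Crmp1 rose in HP (0.60 ± 0.16, adjusted p = 0.0441), a call lost after median centring, and had 0.48 ± 0.16 in LP (adjusted p = 0.0895). Dpysl4 fell in both lines (-0.74 ± 0.11 and -0.90 ± 0.11, adjusted p = 0.00219 and 0.000629). Stmn1 and Stmn3, the other 2 stathmins, did not pass in either line (adjusted p = 0.215 and 0.386 for Stmn1, 0.894 and 0.346 for Stmn3).

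Some other motor genes also fell, though most did not pass. Of 19 axonal transport motors 1 rose, 3 fell and 15 did not pass in each line, with medians of -0.15 and -0.20. The shares over all genes were 12.8% in HP and 14.3% in LP. The fallers were Kif5b, Dync1i1 and Dync1i2 in HP, and Dync1i1, Dync1i2 and Dynll2 in LP. The dynein intermediate chain genes Dync1i1 and Dync1i2 fell, with log2 differences of -0.62 ± 0.11 and -0.64 ± 0.13 in HP (adjusted p = 0.00563 and 0.0116) and -0.69 ± 0.11 and -0.71 ± 0.13 in LP (adjusted p = 0.00264 and 0.00568). Kif5b, the ubiquitous relative of Kif5a, fell in HP (-0.50 ± 0.12, adjusted p = 0.0263) and had -0.39 ± 0.12 in LP (adjusted p = 0.0671). Dynlt1, a dynein light chain, rose by 0.51 ± 0.11 and 0.69 ± 0.11 (adjusted p = 0.0157 and 0.00282). Among 16 microtubule-associated proteins, 1 rose in HP, and 3 rose and 1 fell in LP. Dclk1, a doublecortin family kinase, rose on probe set 1387276_at by 1.00 ± 0.18 and 1.27 ± 0.18 (adjusted p = 0.00726 and 0.00172).

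Other members of the intermediate filament family, lamins and filament linkers were counted together. Of 11 other intermediate filaments and linkers, 5 rose and 1 fell in each line, with medians of 0.56 and 0.51, and 3 rose in HP after quantile normalization or median centring. Gfap, the filament of activated glia, rose to 2522.0, 2445.6 and 2462.2 in HP SNL against 789.4, 803.7 and 733.8 in HP sham (1.67 ± 0.09, adjusted p = 4.08e-05), and Nes rose by 0.70 ± 0.14 in HP and 1.01 ± 0.14 in LP (adjusted p = 0.0112 and 0.00141). Gfap and Nes are not typical of mature sensory neurons. Of 17 membrane skeleton and actin partners, 5 rose and 2 fell in HP, and 4 rose and 1 fell in LP. Gap43 rose on probe set 1367930_at by 0.75 ± 0.16 and 0.93 ± 0.16 (adjusted p = 0.0139 and 0.00421), with -0.10 and 0.17 on its other probe set. Sptbn4, the spectrin of nodes and initial segments, fell, with log2 differences of -1.14 ± 0.18 and -0.87 ± 0.18 (adjusted p = 0.00359 and 0.0111). Of 16 kinases, phosphatases and regulators known to act on tau or neurofilaments, none rose, 3 fell in HP and 4 fell in LP, with medians of -0.09 and -0.06. Ppp3ca, a calcineurin catalytic subunit, fell on both its probe sets. The log2 differences were -0.45 ± 0.11 and -0.61 ± 0.11 for the brighter one (adjusted p = 0.0253 and 0.00505) and -0.62 ± 0.09 and -0.56 ± 0.09 for 1373479_at (adjusted p = 0.00236 and 0.00327).

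**Figure D4:**
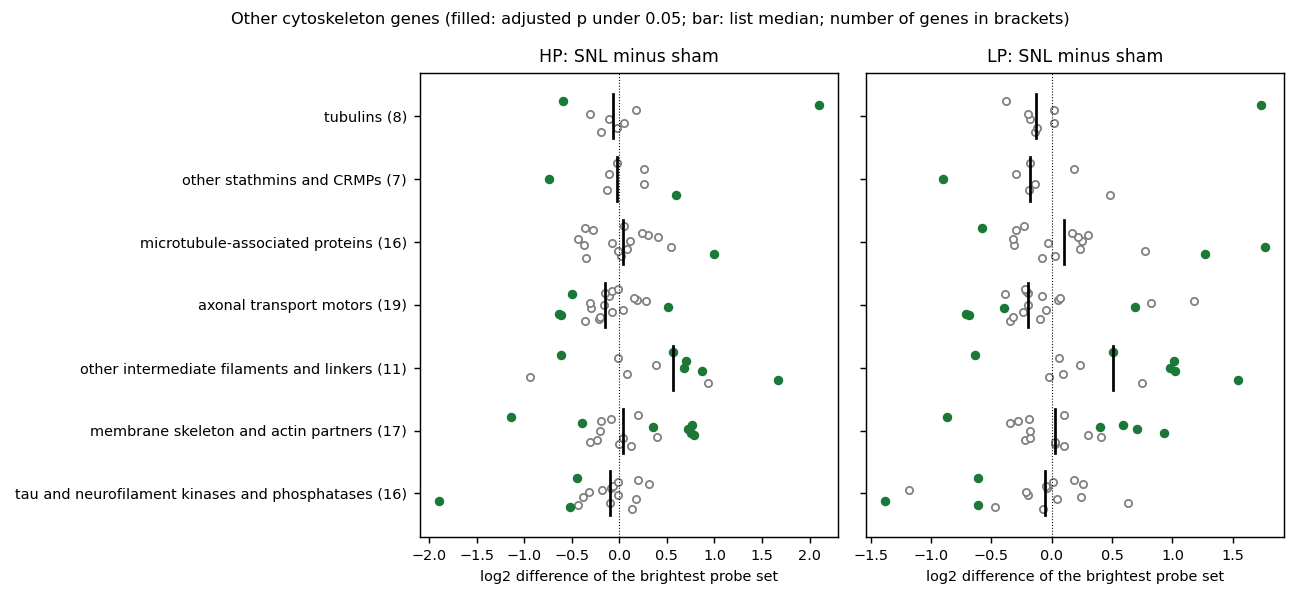
Log2 difference, SNL minus sham, of the brightest probe set of each of 94 other cytoskeleton genes in 7 lists (number of genes in brackets), in HP at left and LP at right. Filled points passed an adjusted p of 0.05. Bars mark list medians, which were not tested, and that of the other intermediate filaments and linkers (0.56 and 0.51) lay farthest from 0.

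Genes with the most similar pattern over the 12 arrays were ranked by Pearson correlation with the mean log2 level of the member genes, as a description without a test. The 12 points fall into SNL and sham arrays, which the ranking shares. For the mean of Nefl, Nefm and Nefh the 5 closest genes were Reep5 (r = 0.907), Stx7 (0.888), Lcat (0.886), Slc25a4 (0.862) and Slc25a11 (0.861). None of these 5 passed in either line, with log2 differences of -0.40 to -0.08. For the mean of Stmn2, Stmn4 and Tubb2b they were Kif22 (0.987), Csrp3 (0.978), Reg3b (0.976), Tgm1 (0.974) and Gfap (0.974). All 5 rose in both lines, Csrp3, a muscle LIM protein, to 1487 ± 108 in HP SNL against 257 ± 77.4 in HP sham (SD, n = 3 each), at 2.57 ± 0.22 (adjusted p = 0.000219), and by 2.23 ± 0.22 in LP (adjusted p = 0.000261).

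The lines were then set against each other. None of the 16 probe sets passed between LP and HP after SNL, where 0.145% of all probe sets passed, or after sham, where 0.0441% passed. By limma at an unadjusted p under 0.05, 4 of the 16 passed after SNL and 3 after sham, against 10.6% and 9.45% of all probe sets. The gene with the most regular difference was Ina. Both its probe sets were lower on every LP array than on any HP array of the same surgery. The log2 difference, LP minus HP, of 1387226_at was -0.52 ± 0.10 after SNL (95% interval -0.75 to -0.28, adjusted p = 0.113) and -0.44 ± 0.10 after sham (-0.67 to -0.20, adjusted p = 0.26). For 1371148_s_at it was -0.32 ± 0.13 and -0.53 ± 0.13 (adjusted p = 0.441 and 0.281). Between LP SNL and HP SNL, 1387226_at passed only with a trended and robust variance (adjusted p = 0.0366, in a range of 0.0366 to 0.292 over 24 alternatives).

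**Figure D5:**
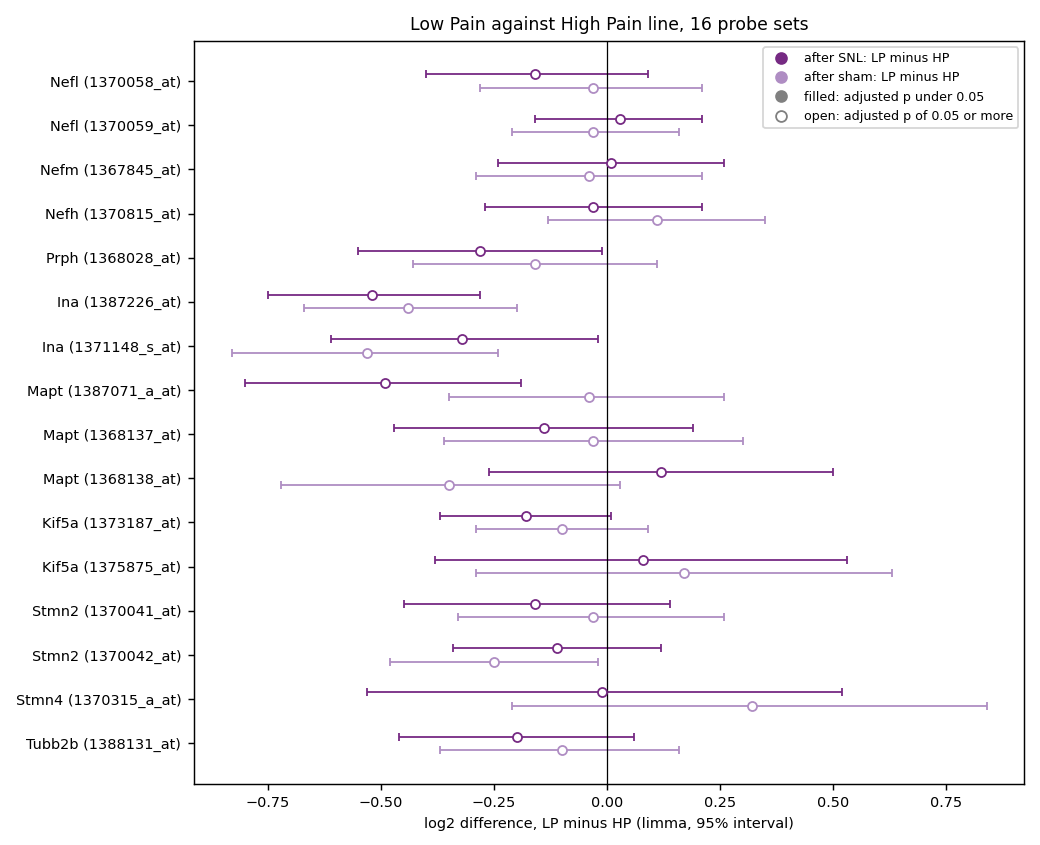
Log2 difference, LP minus HP, with its 95% interval from limma, for the 16 probe sets after SNL (dark) and after sham (light). No point is filled, since none passed an adjusted p of 0.05, and both Ina probe sets have intervals below 0 after either surgery.

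Prph and the Mapt probe set 1387071_a_at also stood apart between the lines after SNL. Prph was lower on every LP SNL array (7195.9, 5741.3 and 6081.3) than on any HP SNL array (7594.1, 8122.8 and 7304.9), at -0.28 ± 0.12 (adjusted p = 0.452). Mapt 1387071_a_at had -0.49 ± 0.14 after SNL (adjusted p = 0.256) and -0.04 ± 0.14 after sham (adjusted p = 0.953). The other Mapt probe sets overlapped between the lines after SNL and differed in sign. By limma, 1368137_at had -0.14 ± 0.15 and 1368138_at 0.12 ± 0.17 (adjusted p = 0.786 and 0.851). In all, 5 of the 16 probe sets did not overlap between the lines after SNL and 5 after sham, with LP below HP each time, against 17.4% and 15.4% of all probe sets. For Stmn4 the LP minus HP value after SNL was -0.01, with an interval of -0.53 to 0.52.

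The response to ligation was not shown to differ between the lines for any member. The interaction, the SNL effect in LP minus that in HP, did not pass for any of the 16 probe sets by limma, nor for any of the 15866 tested, while 1 of the 16 and 4.71% of all had an unadjusted p under 0.05. The 1 was Mapt 1387071_a_at. Stmn4 had -0.32 (95% interval -1.06 to 0.42), Tubb2b -0.10 (-0.47 to 0.28) and Kif5a 1373187_at -0.08 (-0.35 to 0.19). Across the 4 groups, the levels of Stmn4 ran HP SNL, LP SNL, LP sham, HP sham from high to low, and only the step between the SNL and sham groups exceeded the spread. Tubb2b and Stmn2 ran HP SNL, LP SNL, HP sham, LP sham. Kif5a 1373187_at and Mapt 1387071_a_at ran HP sham, LP sham, HP SNL, LP SNL. For these 2 probe sets the arrays of LP SNL and HP SNL did not overlap either, at -0.18 ± 0.09 and -0.49 ± 0.14, and neither difference passed (limma adjusted p = 0.502 and 0.256). Nefm and Nefh had no neighbouring groups that differed beyond their spread.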

How the data were processed

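The authors deposited a matrix of linear intensity values, one for each probe set in each of 12 samples, which run up to 13930.7. RMA, with no version, is all that is listed per the submitters' processing notes. The trimmed mean (2% off either end) is 500.1 on all arrays, as after global scaling of each array; how the authors made the values is therefore unsettled. Of 191076 values 109 were below 1, and log2(value + 1) was analysed as it stood. Gene symbols came from the platform's annotation, brought up to date with RefSeq (GRCr8). Of 15923 probe sets, 57 controls were left out of the tests, 12783 had 1 symbol, 312 several and 2771 none. Those with several were not used for a named gene.

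One model with a mean for each of the 4 groups was fitted to the 12 arrays with limma 3.58.1 under R 4.3.3 (8 residual and 1.91 prior degrees of freedom after eBayes), with each probe set as a test and two-sided p-values adjusted over all 15866. A gene counted as past the threshold if at least 1 of its probe sets passed. The average over the lines was added after the data were seen. Correlations of log2 values were 0.941 to 0.965 within groups and 0.922 to 0.961 between them, and no 2 arrays were identical. The fit was also run on arrays simulated with independent noise and changes in HP SNL alone. That run checked the code and does not bear on the calls. The number of arrays limits the precision.

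The members, gene lists and tests were chosen with earlier results of these data known. Named beyond the members were, of each list, up to 3 genes with the largest increase and 3 with the largest decrease among those past the threshold in either line, from which examples are given, and the 5 genes closest in pattern. Stmn1, Stmn3, Tubb2a and Tubb3 were named as relatives of the members, outside that rule and after their values were seen. Neuron, macrophage, muscle and other marker lists were counted, to be read beside the 12.8% of all genes in HP and 14.3% in LP that passed. Alternatives were a replicate block, a filter that dropped the dimmest 25% of probe sets, quantile normalization, median centring, pseudocounts of 16 and 32, trended and robust variance, array weights, only the arrays compared, 1 probe set per gene, averaging the probe sets within a gene, the actin ratio as a covariate, and each array left out in turn. Lists not described in the text gave the following: of 9 Schwann cell and myelin markers 1 rose in each line, of 7 satellite glia markers 3 rose in each, of 9 fibroblast and endothelial markers 4 rose in HP and 5 in LP, and of 9 skeletal muscle markers 2 fell in HP and none in LP. After median centring no Schwann cell and myelin marker rose in either line, and 2 fibroblast and endothelial markers rose in HP and 4 in LP.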

Additional observations from a re-analysis of the deposited data

How the results depend on the processing

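In each line, 4 of the 10 genes had a probe set past the threshold, and the count was 3 to 5 under the 12 alternatives other than leaving out an array, and 4 each time an array was left out. The fifth gene was Nefl. Kif5a dropped out in HP with the mean of its probe sets, Mapt when only HP arrays were fitted, and Tubb2b when only LP arrays were. No call reversed its direction. Between LP SNL and HP SNL the count was 0 and became 1 (Ina) with a trended and robust variance. It stayed at 0 between LP sham and HP sham under all 12 alternatives and for the interaction under the 11 that were run, and with each array left out. Fitting only the arrays compared gives no separate value for the interaction, which uses all groups.

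Over all probe sets, 1708 passed in HP and 1922 in LP, against 915 in HP with the actin covariate, 1069 and 834 in fits of 1 line alone, and 981 to 1775 and 1248 to 1837 with an array left out. The highest counts, 2111 in HP and 2320 in LP, came with a trended and robust variance. Within the line contrasts, 23 passed after SNL and 7 after sham, 7 to 68 and 0 to 38 under the other alternatives, and 1 to 22 and 0 to 11 with an array left out. For the interaction the main count was 0, and up to 3 passed. Median centring moved the share of higher calls between LP SNL and HP SNL to 48.4%, against 65.2% as deposited. Quantile normalization moved that between LP sham and HP sham to 0%, against 14.3%. These shares rest on few calls, 31 against 23 after SNL and 1 against 7 after sham. For SNL against sham, median centring moved the share from 50.4% to 43% in HP and from 52.4% to 44.1% in LP.

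The labels do not say that replicate numbers pair the arrays. Correlations of same-numbered deviations lay between -0.173 and 0.112. Without differently numbered arrays beside them, these values cannot settle whether the numbers pair arrays. With the replicate block, 4 genes passed in each line and 0 in the other contrasts, though Mapt 1387071_a_at lost its call in HP (adjusted p = 0.0871). Scalings moved the median of all probe sets by at most 0.05, but some bright members moved further. In HP, quantile normalization took Nefl 1370058_at from -0.07 to -0.23, Nefh from -0.03 to -0.19 and Prph from 0.08 to -0.11. The listed linear signals carry no detection calls, so dim probe sets are limited by an unknown background.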
